A study of Mus musculus with 12 samples.

Results

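The intergenic TET2 sites described here were listed in a mouse acute myeloid leukemia (AML) culture and had no counterpart in the site list of an immortalized myeloid culture. TET2 binding was mapped by chromatin immunoprecipitation sequencing (ChIP-seq), and 1 list of binding sites was deposited for each culture. Rows of a list that shared at least 1 bp were merged, and sites on chromosomes 1 to 19 were kept. An AML site was taken when it shared no base with a myeloid site, when its midpoint lay outside every protein-coding gene, and when that midpoint was over 1 kb and at most 100 kb from the nearest start or end coordinate of a protein-coding gene (called a gene end here). This gave 750 AML-only intergenic sites of 6778 merged AML sites, which covered 541 kb. The sites were thus chosen by the overlap of the lists and by position, so their absence from the myeloid list is a description and not a result.

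The AML cells carried the genotype Npm1+/cA; Fl3+/ITD (as the labels spell it) with no transgene, and their knockout counterparts were in addition Tet2-/-. The myeloid cells were hematopoietic cells immortalized with the MigR1-AML1-ETO transgene, with the genotype Tet2fl/fl; AML1-ETO, and their knockout counterparts were Tet2-/-; AML1-ETO. Each culture gave 2 libraries from cells with TET2 and 2 from knockout cells with an antibody raised to the TET2 N terminus, besides 1 input and 1 IgG library, so 12 in all. All cells grew in stem cell factor (50 ng/ml), interleukin 3 (10 ng/ml) and interleukin 6 (10 ng/ml), and how many animals or clones stand behind a culture is not stated in these sources. The cultures differed in genotype, transgene and origin, and these differences cannot be told apart. The lists hold positions alone, with no value per site or per library, so no site has a replicate error and the depth behind it is unknown. Intervals of shares are exact Clopper-Pearson 95% intervals and those of odds ratios exact conditional 95% intervals. Both cover counting error over sites, and each test compares classes of sites within these lists, not conditions over replicates. Neighbouring sites are not independent.

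TET2 is an enzyme that oxidizes 5-methylcytosine, the first step in removing this mark from DNA. It has no DNA-binding CXXC domain of its own and is thought to reach many of its targets through transcription factors. DNA between genes holds many enhancers, the elements that raise transcription from a distance, and the title of the study places TET2 at such elements. Neither enhancer marks nor expression were measured in these files, so a site is called here by its position and a gene by its nearness, which does not make it a target.

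A few of these sites could be shown as sequence, because they held the start of a long non-coding RNA (lncRNA) gene. Start windows of 300 bp (250 bp before to 50 bp after the annotated start) came from RefSeq, build GRCm38.p6, which has the chromosome coordinates of mm10. Of the 750 sites, 16 touched such a window, and 9 windows lay wholly inside 8 of the sites. Of these windows 5 are printed 5′ to 3′ on the strand of the lncRNA. Capitals mark matches, on either strand, to short motifs of factors of blood cells: TTGCNNAA for C/EBP proteins, GGAAGT for the ETS family, TGTGGT for RUNX proteins, TGANTCA for AP-1 dimers, TGACGT as in cyclic AMP response elements, AGATAA for the GATA family, TGACAG for MEIS proteins and TTCNNNGAA for STAT proteins. Matches of different motifs may overlap. All 5 printed windows hold the ETS letters. The windows not printed were those of Gm32287 (6 matches), Gm36435 (1), Gm32575 (2, neither of them ETS) and Gm52049 (0). Junos lies beside Jun, which encodes an AP-1 subunit, and its window (chr4:95075386-95075685, plus strand) is in a site 23.5 kb from that gene. Gm14321 (chr2:167777241-167777540, plus strand) starts in a site whose nearest gene end is that of Cebpb, at 87.0 kb. That site lay 1.125 kb from a myeloid site, and Cebpb was the nearest gene, within 100 kb, of 11 myeloid sites. The windows of 4930447M23Rik (chr2:19344067-19344366, plus strand), Gm13274 (chr4:88744668-88744967, minus strand) and Gm41546 (chr17:23967015-23967314, plus strand) show sites next to genes of other kinds.
Junos: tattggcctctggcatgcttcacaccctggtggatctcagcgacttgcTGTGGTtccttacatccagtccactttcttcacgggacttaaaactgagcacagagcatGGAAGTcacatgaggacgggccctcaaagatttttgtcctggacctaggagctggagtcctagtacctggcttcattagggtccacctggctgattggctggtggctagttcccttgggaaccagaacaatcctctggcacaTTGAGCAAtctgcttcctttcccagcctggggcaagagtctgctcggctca
Gm14321: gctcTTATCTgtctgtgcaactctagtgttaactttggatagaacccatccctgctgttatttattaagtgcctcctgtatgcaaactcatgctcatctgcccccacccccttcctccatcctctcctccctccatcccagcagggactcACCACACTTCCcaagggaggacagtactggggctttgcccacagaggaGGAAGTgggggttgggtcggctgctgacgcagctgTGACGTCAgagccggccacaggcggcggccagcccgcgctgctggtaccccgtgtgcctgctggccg
4930447M23Rik: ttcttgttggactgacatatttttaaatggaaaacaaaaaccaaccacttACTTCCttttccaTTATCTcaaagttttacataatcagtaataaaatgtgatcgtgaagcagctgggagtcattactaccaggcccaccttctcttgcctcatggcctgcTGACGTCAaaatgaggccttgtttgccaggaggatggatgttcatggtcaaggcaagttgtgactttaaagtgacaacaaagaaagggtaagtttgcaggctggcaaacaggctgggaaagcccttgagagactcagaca
Gm13274: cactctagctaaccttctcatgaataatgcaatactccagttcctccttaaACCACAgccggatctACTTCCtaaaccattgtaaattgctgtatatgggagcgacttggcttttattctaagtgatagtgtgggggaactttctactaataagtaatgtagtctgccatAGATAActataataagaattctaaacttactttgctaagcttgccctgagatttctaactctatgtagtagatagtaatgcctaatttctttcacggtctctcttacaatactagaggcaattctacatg
Gm41546: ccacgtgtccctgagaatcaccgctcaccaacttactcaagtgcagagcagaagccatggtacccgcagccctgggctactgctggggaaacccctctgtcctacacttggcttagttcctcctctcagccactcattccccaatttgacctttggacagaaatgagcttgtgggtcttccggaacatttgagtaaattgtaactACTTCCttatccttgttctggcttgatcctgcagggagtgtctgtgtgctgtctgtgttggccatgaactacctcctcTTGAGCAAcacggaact

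The ETS letters GGAAGT were the most frequent in these windows. They were in 7 of the 9 windows inside AML-only intergenic sites, in 16 of 39 windows inside shared intergenic AML sites (41.0%) and in 22% of all 11310 lncRNA start windows. The RUNX letters were in 5 of 9, 12 of 39 (30.8%) and 20.1%. AML1, the DNA-binding part of the AML1-ETO fusion in the myeloid culture, is a RUNX factor. The cyclic AMP response element letters were in 3 of 9, 5 of 39 (12.8%) and 5.75%. The C/EBP letters were in 2 of 9, 13 of 39 (33.3%) and 12%. C/EBP proteins drive granulocyte differentiation. The GATA letters were in 3 of 9, 6 of 39 (15.4%) and 14.0%, and the AP-1 letters in 1 of 9, 5 of 39 (12.8%) and 9.25%. The MEIS letters were in 1 of 9, 11 of 39 (28.2%) and 20.2%, and the STAT letters in 0 of 9, 8 of 39 (20.5%) and 9.36%. The windows of Gm14321 and Gm32287 overlap on opposite strands and share several matches, so these counts are not of independent sequences. They describe 8 of 750 sites, and no test was made of them. The windows inside AML-only intergenic sites had a median GC content of 51.3% (37 to 67.3%) and a median of 4 CpG dinucleotides (2 to 16), against 52.0% and 6 in the windows inside shared intergenic sites and 48.3% and 4 in all windows.

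AML-only sites were 29.1% (27.4 to 30.9) of the 2574 intergenic AML sites, and the other 1824 were shared. Among AML sites in or at genes the AML-only share was 26.0% (24.6 to 27.5), and beyond 100 kb from a gene end it was 39.2% (35 to 43.5). At the limits of the rule the choice was narrow for some sites. The site nearest to the myeloid list, by Slc16a14 (chr1:84940854-84941554), lay 11 bp from a myeloid site, and the intergenic site with the smallest overlap, by Mfap4 (chr11:61469926-61470606), shared 4 bp. The sites on either side of the 1 kb limit lay 1041 bp from Aplnr and 968 bp from Pnpla3. Those at the 100 kb limit lay 99694 bp from Rnf144a and 100129 bp from Pitx1. Most shared intergenic sites overlapped far more, by a median of 97.4% of the AML site, and 18 of them by under 50%.

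Many AML-only intergenic sites lay near a site of the other culture without touching it. The median gap to the nearest myeloid site was 21.3 kb (quartiles 6.20 and 53.1 kb). For AML-only sites in or at genes it was 17.9 kb (5.68 and 56.2 kb), so such nearness was not particular to the intergenic ones. A myeloid site lay within 1 kb of 44 AML-only intergenic sites (5.87%, 4.29 to 7.80), within 10 kb of 258 (34.4%, 31.0 to 37.9) and within 100 kb of 639 (85.2%, 82.5 to 87.7). Of the 258 sites with a myeloid site within 10 kb, 139 (53.9%) also had another AML site within 10 kb. That was so for 34 of the 296 sites with a gap of 10 to 50 kb (11.5%) and 14 of the 196 with a gap over 50 kb (7.14%). The median width was between 701 and 704 bp in the 3 groups. From a gene end, the median site of the group nearest to myeloid sites was 12.6 kb away, that of the middle group 22 kb and that of the farthest group 19.2 kb, and 14.7%, 22% and 19.4% of their sites lay over 50 kb from a gene end. These values follow in part from the rule and were not tested.

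**Figure D1:**
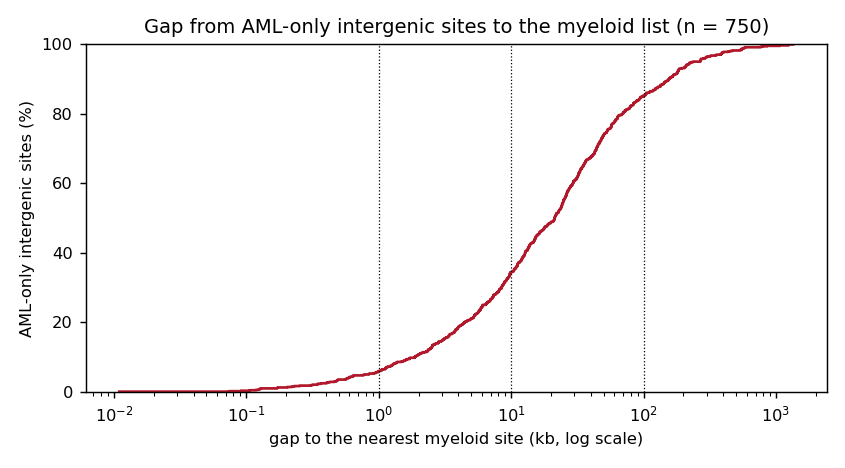
Cumulative share (%) of the 750 AML-only intergenic sites by gap to the nearest myeloid site, in kb on a log axis; dotted lines mark 1, 10 and 100 kb. The line passes 5.87% at 1 kb, 34.4% at 10 kb and 85.2% at 100 kb.

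AML-only intergenic sites lay more than 50 kb from genes more often than other intergenic sites did. The median site lay 18.3 kb from a gene end (quartiles 6.89 and 39.3 kb), against 15.1 kb (5.80 and 34.1 kb) for shared intergenic AML sites and 14.0 kb (5.64 and 32.2 kb) for the 3700 myeloid-only intergenic sites, which pass the same location rule. Of the AML-only sites, 141 lay over 50 kb from a gene end (18.8%, 16.1 to 21.8). The share was 14.1% (12.5 to 15.8) of the shared sites, an odds ratio of 1.41 (1.12 to 1.78; two-sided Fisher's exact test, adjusted p = 0.00885 over 10 tests). It was 14.4% (13.3 to 15.6) of the myeloid-only sites, an odds ratio of 1.38 (1.11 to 1.69; Fisher's exact test, adjusted p = 0.00885). Over 10 kb from a gene end lay 65.1% of AML-only sites (61.5 to 68.5), 62.3% of shared sites (60.0 to 64.5) and 59.8% of myeloid-only sites (58.2 to 61.3). The difference from shared sites did not pass (odds ratio 1.13, 0.941 to 1.35; Fisher's exact test, adjusted p = 0.275), and that from myeloid-only sites did (1.25, 1.06 to 1.48; Fisher's exact test, adjusted p = 0.0136). Neither restriction left the second difference past the threshold: with sites over 5 kb from genes the odds ratio was 1.20, and with sites at most 50 kb from them 1.18. Whether a site is AML-only depends on where myeloid sites lie, so distance from genes is not wholly apart from the rule. How far this enters the differences was not tested.

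**Figure D2:**
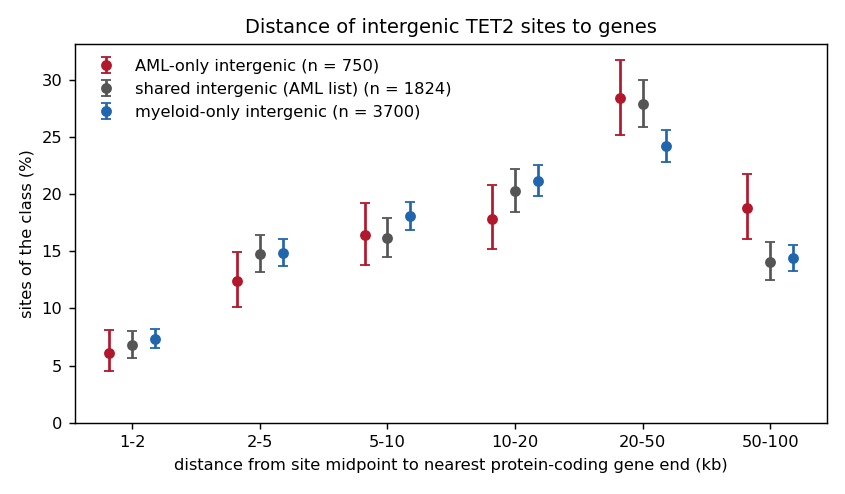
Share (%) of the sites of each class by distance (kb) from the site midpoint to the nearest protein-coding gene end; points are shares and bars exact 95% intervals. In the bin from 50 to 100 kb AML-only intergenic sites stand at 18.8%, shared at 14.1% and myeloid-only at 14.4%.

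AML-only intergenic sites were narrower than shared ones of the same list. Their median width was 702 bp (quartiles 679 and 743 bp; 651 to 1417 bp), against 730 bp (694 and 784 bp; 651 to 1694 bp). Of the AML-only sites 37.5% (34.0 to 41.0) were wider than the median of all AML sites, 721 bp, against 55.5% (53.2 to 57.8) of the shared sites, an odds ratio of 0.480 (0.401 to 0.573; Fisher's exact test, two-sided, adjusted p = 6.50e-16). AML-only sites in or at genes had a like share of 38.2% (35.1 to 41.4), with an odds ratio of 0.969 (0.791 to 1.19; Fisher's exact test, adjusted p = 0.763). Site width is an output of peak calling. The smallest AML width, 651 bp, and a width of 680 bp were the most frequent in the deposited AML list, with 237 and 229 of 6877 rows. At the smallest width stood 45 of the 750 AML-only intergenic sites (6%, 4.41 to 7.95) and 36 of the 1824 shared ones (1.97%, 1.39 to 2.72). At 680 bp stood 4.67% (3.27 to 6.43) and 2.30% (1.66 to 3.10). How these widths arose is not stated. Without sites of either width, in a comparison added after the data were seen, 41.9% (38.2 to 45.8) of AML-only and 58.0% (55.7 to 60.3) of shared intergenic sites were wider than 721 bp (odds ratio 0.523; Fisher's exact test, adjusted p = 1.43e-11). A wider site has more bases that can meet a myeloid site, so width is not wholly apart from the rule.

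**Figure D3:**
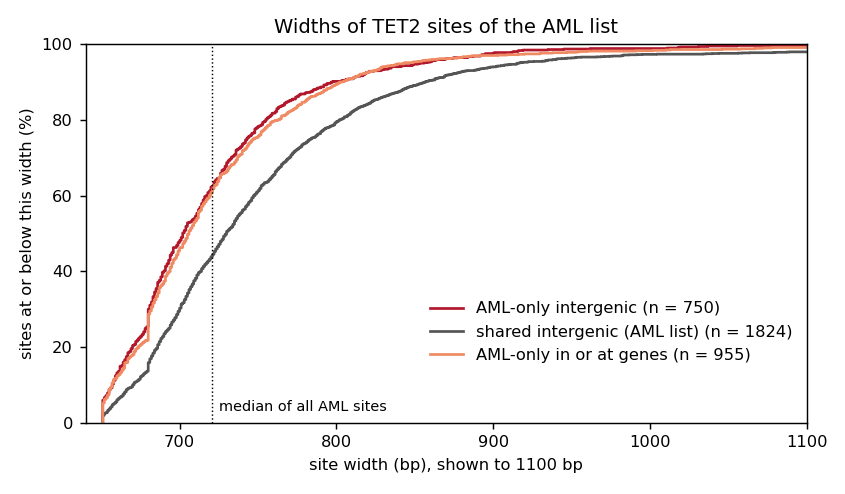
Cumulative share (%) of sites of the AML list by width (bp) in 3 classes; the dotted line is the median of all AML sites, 721 bp. The curves of the AML-only classes run together and to the left of the shared intergenic sites, with steps at 651 and 680 bp.

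AML-only intergenic sites had fewer AML neighbours than shared ones. Another AML site lay within 10 kb of 187 of them (24.9%, 21.9 to 28.2), against 30.7% (28.6 to 32.9) of shared intergenic sites, an odds ratio of 0.750 (0.614 to 0.913; Fisher's exact test, two-sided, adjusted p = 0.00885). It did not pass among sites over 5 kb from genes (odds ratio 0.790; Fisher's exact test, adjusted p = 0.0807). AML neighbours were more frequent near myeloid sites: 53.9% of AML-only intergenic sites with a gap up to 10 kb had one, and 7.14% with a gap over 50 kb. Overlap with a myeloid site defines the classes, so the number of neighbours is not wholly apart from the rule. How far this enters the difference from shared sites was not tested. Of the 187, 112 had shared neighbours, 64 had AML-only neighbours and 11 had both. Against AML-only sites in or at genes, of which 20.9% had such a neighbour (18.4 to 23.7), the odds ratio was 1.25 (0.992 to 1.58; Fisher's exact test, adjusted p = 0.0910). Among themselves they were mostly single: with members up to 10 kb apart joined, 681 stood alone, 33 groups held 2 and 1 group held 3. That group of 3 lay beside Myc. The next densest groups were pairs, by Aopep (chr13:62955754-62957410), by Ntrk2 (chr13:59227963-59229686), between Socs2 and Mrpl42 (chr10:95447831-95449567) and by Kansl2 (chr15:98512728-98514733).

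Non-coding genes held the midpoint of 152 AML-only intergenic sites (20.3%, 17.5 to 23.3), since the rule looked at protein-coding genes alone. The share was 21.4% (19.5 to 23.3) among shared sites (odds ratio 0.935, 0.752 to 1.16; Fisher's exact test, adjusted p = 0.698) and 19.6% (18.4 to 21.0) among myeloid-only sites (odds ratio 1.04, 0.849 to 1.27; Fisher's exact test, adjusted p = 0.763). By kind, 142 lay in lncRNA genes, 8 in pseudogenes and 6 in transcribed pseudogenes, with some sites counted in more than 1 gene. Pvt1, an lncRNA gene beside Myc whose locus is rearranged or amplified in several cancers, held 3, more than any other non-coding gene. Gm31718, Gm34080, Gm34805, Gm41508 and Junos held 2 each. Myeloid-only sites numbered 3 in Pvt1, 5 in Gm31718, 3 in Junos and 0 in Gm34080, Gm34805 and Gm41508. Where the strand of the nearest protein-coding gene was known (610 sites), its end nearest to the site was the transcription start side in 56.1% (52.0 to 60.0). That share was 59.9% (57.2 to 62.4) for shared sites (odds ratio 0.856, 0.703 to 1.04) and 58.9% (57.1 to 60.7) for myeloid-only sites (0.889, 0.743 to 1.07), and neither difference passed (Fisher's exact test, adjusted p = 0.206 for both).

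A pair of AML-only intergenic sites flanked the microRNA gene Mir31. MicroRNAs pair through their seed, bases 2 to 8, with messenger RNAs and lower their output, and miR-31 is lost or raised in several human cancers. One site (chr4:88909348-88909999) lay 0.558 kb from the hairpin and the other (chr4:88918315-88919063) 7.65 kb from it, with the nearest myeloid site 43.6 and 40.4 kb away. The site nearer to the hairpin had the smallest width of the AML list. The nearest protein-coding gene end was that of Ifne, which encodes interferon epsilon. The site by Jak1, a kinase of cytokine receptors, lay 8.24 kb from Mir101a. The RefSeq mature sequences of both genes, 5′ to 3′ with the seed in capitals, share no seed.
miR-31-5p: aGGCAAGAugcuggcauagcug
miR-31-3p: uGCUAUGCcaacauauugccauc
miR-101a-3p: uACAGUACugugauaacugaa
miR-101a-5p: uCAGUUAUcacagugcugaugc
The other microRNA genes within 10 kb were Mir762 (2.66 kb), Mir1291 (6.38 and 5.03 kb from a pair of sites by Kansl2), Mir1892 (8.39 kb) and Gm51276, the gene of miR-12196 (1.35 kb from a site by Errfi1).

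Each site was assigned to the protein-coding gene with the nearest end, up to 100 kb away, and the counts of other sites by gene below have the same limit. The 750 sites fell to 674 genes, 3.26% of the 20665 on these chromosomes (against 7.01% with a shared and 12.7% with a myeloid-only intergenic site). Of the 674 genes, 607 had 1 such site, 59 had 2, 7 had 3 and 1 had 4. A shared AML site was also assigned to 268 of them (39.8%), and a myeloid site of any kind to 461 (68.4%). The other 213 genes, with 229 of the sites, had no myeloid site. In 384 genes all AML sites were of this class. The shares of all 20665 genes with a shared AML site or with any myeloid site are not given here. Without them these counts cannot be read as high or low, and the genes without a myeloid site are no set particular to AML. The genes with most sites are named below, and their counts are a description, since they were ranked by them. Among the 15 with most, Adtrp alone had 0 myeloid-only sites, and the others had from 1 (Psmg1 and Edn1) to 7 (Atp8b4).

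Myc, the transcription factor of cell growth that many leukemias overexpress, had 3 AML sites within 100 kb, all of them AML-only and intergenic. They lay at chr15:62050494-62051190, chr15:62056168-62057031 and chr15:62063229-62063923, 60.5, 66.2 and 73.2 kb from the nearer Myc end, and together spanned 13.4 kb inside Pvt1. The myeloid list had 3 other sites assigned to Myc, 1 within 1 kb of a gene end, 1 in the gene body and 1 at 56.2 kb, which was 3.64 kb from the first AML-only site. Within 100 kb of Myc the sites of the cultures did not overlap, while Pvt1 also held 1 shared AML site farther from Myc than that. Pvt1 held 3 myeloid-only sites as well.

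Runx3, a RUNX transcription factor of the family to which AML1 belongs, had 3 AML-only intergenic sites beside 3 shared sites and 4 myeloid-only sites. These 3 lay at 90.8, 66.8 and 15 kb from a gene end (chr4:135029554-135030207, chr4:135053483-135054134 and chr4:135192655-135193324), and were 653, 651 and 669 bp wide, at or near the smallest width of the list. Each was between 9.73 and 12.2 kb from a myeloid site. Rbpj, the DNA-binding effector of Notch signalling, had 3 such sites in a row upstream, at 72.7, 46.1 and 31.5 kb, with 1 shared site among them at 64.8 kb. Irf2, an interferon regulatory factor, had 2, at 22.1 and 43.0 kb past its 3′ end and 651 and 655 bp wide, beside 3 shared sites. The nearer of the 2 lay 1.04 kb from a myeloid site. Rbpj and Irf2 each had 4 myeloid-only sites.

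Adtrp, which encodes a regulator of tissue factor pathway inhibitor, was the gene without a myeloid site among the 15 with most AML-only intergenic sites. All of its 7 AML sites were AML-only: 3 were intergenic, at 35.1, 17.9 and 74.2 kb from a gene end, and 4 lay in the gene body. The nearest myeloid site to the intergenic 3 was between 63.6 and 185 kb away. One of them (chr13:41865211-41865893) touched the start window of the lncRNA gene Gm10790. Edn1, the gene of endothelin 1 on the same chromosome, had 2 AML-only intergenic sites, at 42.8 and 64.5 kb, which lay 3.95 and 0.952 kb from a myeloid site.

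Mdm1, which encodes a centriole protein, had the most, 4 of its 7 AML sites. A pair (chr10:118172267-118172939 and chr10:118178598-118179249) lay 3.6 and 9.92 kb past its 3′ end, between Mdm1 and Il22, the gene of the cytokine interleukin 22. The other pair lay 91.2 and 56.2 kb before its start, the latter 1.29 kb from a myeloid site and 1018 bp wide. Psmg1, a proteasome assembly chaperone, had 3, of which 2 lay 1.11 kb apart inside the lncRNA gene Gm41508 (chr16:95929485-95930320 and chr16:95931425-95932076). These 2 lay 50.0 and 48.2 kb from Psmg1. The protein-coding gene on their other side, Ets2, an ETS factor, was farther away. Phlda1 had 3, at 21.6, 35.5 and 67.5 kb, on either side of 1 shared site. Lipg, the gene of endothelial lipase, had 3 between 35.3 and 57.0 kb, and the myeloid sites nearest to them were between 1.36 and 8.84 kb away.

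**Figure D4:**
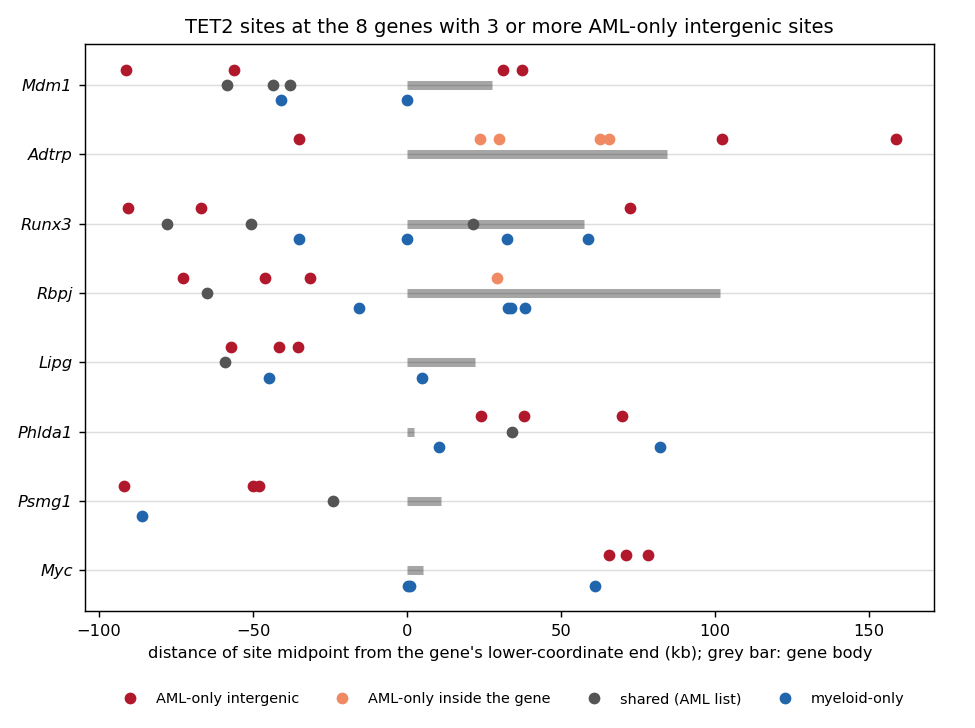
TET2 sites assigned to the 8 genes with 3 or more AML-only intergenic sites; the x axis is the distance (kb) of the site midpoint from the lower-coordinate end of the gene, grey bars are gene bodies and points are sites by class. The 3 AML-only intergenic sites of Myc lie on 1 side of it, and Adtrp has no shared and no myeloid-only point.

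Among genes with 2 AML-only intergenic sites, Atp8b4, Gramd1b, Nampt, Pdcd1lg2 and Pde4b are described as those with most AML sites. Samsn1, Tomm20 and Ywhaz had as many as the last 3 of these (5) and fell outside the 15 by alphabet. Nampt, the enzyme that limits NAD salvage, had them at 74.4 and 37.3 kb, beside 3 shared sites. Pdcd1lg2, the gene of the immune checkpoint ligand PD-L2, had them at 5.93 and 12.6 kb past its 3′ end, the latter 0.465 kb from a myeloid site. Pde4b, a phosphodiesterase of cyclic AMP, had them at 1.05 and 2.99 kb past its 3′ end. Atp8b4 had 4 shared and 4 AML-only sites, 2 of the latter intergenic, and Gramd1b had 4 shared and 2 AML-only sites, both intergenic. Myeloid-only sites numbered 7 at Atp8b4 and 5 at Gramd1b, where 1 of the AML-only sites lay 0.642 kb from a myeloid site. Jun, named after its values were seen, had 2 AML sites, both inside Junos, at 23.5 kb (chr4:95075291-95076175) and 42.8 kb (chr4:95094655-95095344). They were 72.3 and 53.2 kb from the nearest myeloid site. The myeloid list had 1 site assigned to Jun, and Junos held 3 myeloid-only sites.

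Besides Adtrp, 14 genes had 2 AML-only intergenic sites and no myeloid site, and these were their only AML sites. They were Abcd3, Adam28, Adgrb3, Barx2, Calml3, Dhx40, Dppa3, Gm826, Gstp3, Kansl2, Ntrk2, Raph1, Rsl24d1 and Tmem30b. Several act outside blood, such as Ntrk2, the receptor of brain-derived neurotrophic factor, and Adgrb3, an adhesion receptor of synapses. At Adam28, a metalloprotease gene, the sites lay 6.84 and 11.4 kb from its end and 389 and 393 kb from a myeloid site. At Tmem30b both lay inside the lncRNA gene Gm34080, 1.80 kb apart. The pair by Ntrk2 lay 0.061 kb apart at 94.5 and 95.4 kb, close to the limit of assignment.

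The widest AML-only intergenic sites lay by other genes. Atf6, a stress sensor of the endoplasmic reticulum, had the widest at 1417 bp (chr1:170702099-170703516), followed by Mbnl1, a splicing regulator, at 1242 bp and Tmc1 at 1176 bp, each merged from 2 deposited rows. Cldn17 (1056 bp) and Lonrf1 (1037 bp) came next, each from 1 row. The site by Cldn17 was 229.5 kb from the nearest myeloid site and 854 kb from another AML site.

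Counts of gene lists are given beside the 3.26% of all protein-coding genes with an AML-only intergenic site, and no list was tested. For the same lists, genes with a shared or a myeloid-only intergenic site are to be read against 7.01% and 12.7% of all genes. Of 47 genes of myeloid transcription factors, 8 had such a site (17.0%), with 14 sites in all, while 20 had a shared and 30 a myeloid-only intergenic site. Besides Runx3, Myc, Irf2 and Jun, these were Cebpb, Bcl6, Atf3 and Junb with 1 each. Of 30 granulocyte genes, 4 had one (13.3%), 15 a shared and 13 a myeloid-only one. Chil3, which encodes a chitinase-like protein of neutrophils and macrophages, had it at 2.38 kb, Cd177, a neutrophil surface antigen, at 5.72 kb, and Ltf, the gene of lactoferrin, at 12.6 kb, each beside shared sites. Ctsg, the gene of cathepsin G, had its single AML site at 2.90 kb, 1019 bp wide and 1.99 kb from a myeloid site. Of 49 genes of cytokine signalling, 6 had one (12.2%), 19 a shared and 23 a myeloid-only one. They included Dusp5, a phosphatase of ERK, at 24.3 kb, Il6st, the shared receptor chain of the interleukin 6 family, at 20.7 kb, and Jak1 at 73.1 kb, each with 1 or 2 shared sites. Of 27 genes of chemokines and their receptors, 3 had one (11.1%), 11 a shared and 18 a myeloid-only one. The 3 included Ccl2 and Cxcl1, with gaps of 0.425 and 5.27 kb to a myeloid site.

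Other lists stood nearer to the background. The monocyte and macrophage list had 2 of 30 genes with such a site (6.67%): Fcgr1, a high-affinity receptor of IgG, and Ly6c2, a marker of inflammatory monocytes, whose sites lay 6.07 and 0.347 kb from a myeloid site. The list of mast cells, basophils and eosinophils had 2 of 23 (8.70%), Il1rl1, the receptor of interleukin 33, and Ms4a2, a chain of the IgE receptor (0.091 kb from a myeloid site). Of 30 progenitor and leukemia genes, 1 had one (3.33%), the homeobox gene Nkx2-3 with 0 myeloid sites. The erythroid and megakaryocyte list had 1 of 18 (Tfrc, 5.56%), the T and NK cell list 1 of 17 (Cd2, 5.88%), the B cell list 0 of 14 and the DNA methylation list 1 of 21 (Mbd2, 4.76%). Lists from other tissues were not at 0: 2 of 23 neuronal genes (Gria2 and Neurod1, 8.70%) and 1 of 16 liver genes (G6pc, 6.25%) had one. At Gria2, Neurod1, G6pc and Cd2 that site was the single AML site, and there was no myeloid site. A shared and a myeloid-only intergenic site stood at 9 and 8 monocyte and macrophage genes. For mast cells, basophils and eosinophils these counts were 5 and 12, and for progenitor and leukemia genes 8 and 9. They were 0 and 5 for the erythroid and megakaryocyte list, 1 and 4 for T and NK cells and 1 and 1 for B cells. The DNA methylation list had 4 and 8, the neuronal list 1 and 2 and the liver list 0 and 3. The median over each list was 0 AML-only intergenic sites per gene, as over all genes.

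The sites were spread over all 19 chromosomes, from 22 on chromosome 18 to 57 on chromosome 1. The AML-only share of intergenic AML sites was lowest on chromosome 11 (19.8%, with 32 AML-only and 130 shared sites) and highest on chromosome 13 (36.2%, 55 and 97). Against shared intergenic sites, 0 of 19 chromosomes passed (0% called; Fisher's exact test, two-sided, adjusted over 19 tests), while 1 had an unadjusted p under 0.05: chromosome 11, with an odds ratio of 0.581 (0.378 to 0.870; Fisher's exact test, p = 0.00716, adjusted p = 0.136). It passed with rows up to 500 bp apart merged (odds ratio 0.536, adjusted p = 0.0490), with sites over 5 kb from genes (odds ratio 0.432, adjusted p = 0.00691), with no upper distance limit (0.528, adjusted p = 0.0114) and against myeloid-only intergenic sites (0.536, adjusted p = 0.0110), by the same exact test. In a comparison added after the data were seen, AML-only sites in or at genes were set against shared ones there. Chromosome 11 went the same way and did not pass (odds ratio 0.730, 0.527 to 0.997; Fisher's exact test, p = 0.0494, adjusted p = 0.469). A lower share on chromosome 11 was thus not seen in intergenic sites alone.

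**Figure D5:**
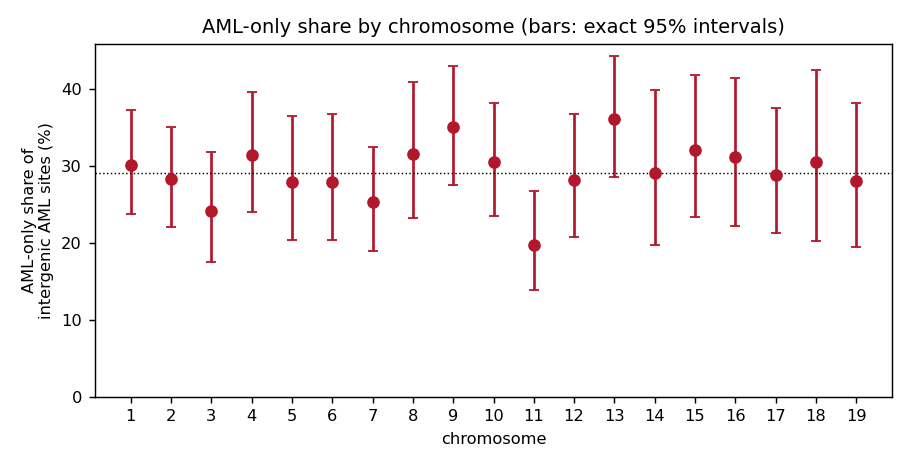
AML-only share (%) of intergenic AML sites on each of chromosomes 1 to 19; points are shares, bars exact 95% intervals and the dotted line the share over all, 29.1%. Chromosome 11 is lowest at 19.8% and chromosome 13 highest at 36.2%.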

How the data were processed

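The submitters' processing notes name mm10, Trimmomatic, MACS2 and Bowtie2. Not given in the sources used here are versions, options, thresholds, whether replicates were pooled, and which use was made of the knockout, IgG and input libraries. For each culture the authors deposited 1 list of TET2 sites with a chromosome, a start and an end per row, per the file headers, and no count, score or p-value. Whether starts count from 0 or 1 is not stated. Cells were crosslinked with 2 mM disuccinimidyl glutarate and 1% formaldehyde, per the labels' protocols.

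The 7002 AML and 19706 myeloid rows were restricted to chromosomes 1 to 19 and merged to 6778 and 18533 sites. Genes came from the RefSeq table of GRCm38.p6, and strands, present for 16457 of 20665 protein-coding genes, from the RefSeq start windows. Fisher's exact tests (scipy 1.17.1, two-sided) compared shares, with Benjamini-Hochberg adjustment over 10 property tests, 19 chromosomes and, as an addition after the files were seen, 2 tests of the nearer gene side. Ranking ties were broken by more AML sites, then by symbol. The scripts were tested on simulated lists. Distances of myeloid-only sites rest on another list, with its own peak widths. The sites and gene lists were chosen with earlier results of these data known. Named were the 15 genes with most sites, genes with at least 2 and no myeloid site, up to 3 per gene list, the 5 widest sites, the 5 densest groups, sites at the limits and microRNA genes within 10 kb; further names were added after their values were seen. Planned sequence tests over whole sites were not made, as no genome was used here. The values of 1 gene of the lists are not reported here.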

Additional observations from a re-analysis of the deposited data

Results flagged for a closer look

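Chromosomes X and Y were outside the rule, and the AML list held sites there that would otherwise have met it. There were 19 AML-only intergenic sites on chromosome X, beside 21 shared ones, and 12 on chromosome Y, beside 0 shared ones. They are given as counts outside the comparisons, with no test. All 12 AML sites of chromosome Y were of this class, and the myeloid list had 2 sites on that chromosome. Which sex chromosomes each culture carried was not examined here, so these counts are not read as a difference in TET2 binding.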

How the results depend on the processing

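No paired analysis was possible because the lists hold no value per library, and for the same reason no replicate could be left out. Of 182 alternative values, 165 were stable: odds ratios kept their direction and side of the threshold, counts stayed within 1.5 times the reported count, and the AML-only share stayed within its 95% interval. The 165 include the values with the whole site required to lie outside genes, all equal to the reported ones. That setting could not change the AML classes. AML intergenic sites, over 1 kb from a gene end and at most 1417 (AML-only) or 1694 bp (shared) wide, cannot reach into a gene. The number of AML-only intergenic sites ran from 609 (at most 50 kb) to 958 (no upper limit). The AML-only share of intergenic AML sites was 31.3% with all annotated genes. The number of genes was 382 when assignment was limited to 20 kb. Over 10 kb against myeloid-only sites, the odds ratio did not pass with sites over 5 kb from genes (1.20) or at most 50 kb (1.18); against shared sites it passed with no upper limit (1.25). AML neighbours within 10 kb against shared sites did not pass with sites over 5 kb from genes (0.790). Neighbours against AML-only sites in or at genes passed with a myeloid site within 500 bp counted as overlap (1.32), with at least 50% overlap required (1.29), with chromosomes X and Y (1.30) and for neighbours within 25 kb (1.29). The odds ratio of wide sites against AML-only sites in or at genes turned to 1.04 with all annotated genes and 1.04 with no upper limit, and that of non-coding genes against myeloid-only sites to 0.970 at most 50 kb; none of these passed. Chromosomes past the threshold numbered 1 with rows up to 500 bp apart merged, 1 over 5 kb from genes, 2 with no upper limit (11 and 13) and 1 against myeloid-only sites; each single one was chromosome 11. The cause was not tested. Sites carry no signal value, so the depth behind them sets an unknown limit.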
